A study of Macrobrachium rosenbergii with 32 samples.

Results

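Single-base deletions at the cut-site of the Mr-cofilin sgRNA were taken from the allele tables of the giant freshwater prawn Macrobrachium rosenbergii as the alleles with 1 deleted and 0 inserted bases in the 20-nt window around the cut. They made up 1607 of the 11882 allele entries and 7196 indel entries of 32 libraries. In reads, they were 127397 of 535772 in the positive controls and 457 of 513941 in the negative controls. The libraries came from 16 nucleofection experiments on wild-type embryonic cells in primary culture, taken from embryos 10 to 14 days old, with the eggs of a single female for each experiment. Every experiment had a positive control, whose cells received Cas9 ribonucleoprotein carrying the sgRNA to Mr-cofilin, and a negative control, whose cells were nucleofected without an sgRNA. DNA was extracted from the mixed cells of a well 72 h after nucleofection, so a share of reads stands for the alleles of many embryos and cell types, whose parts cannot be told apart, and no marker of a cell type was measured. The cell type of the label was therefore not checked here.

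A Cas9 cut leaves a double-strand break that cells mostly rejoin end to end. End joining restores the sequence or leaves a small gain or loss at the junction, and a loss of a single base is among the most frequent outcomes at many Cas9 sites. Cas9 cuts near the PAM, the short motif that follows the target of the sgRNA, and can leave blunt ends or a short overhang. Cofilin is an actin-binding protein that severs and depolymerises actin filaments.

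The sgRNA stood at 8770 to 8789 on the plus strand of scaffold 867, opposite to the gene, in the numbering of the gene annotation that accompanies the study, for which no build was named in the sources used here. It lay 79 nt downstream of the last of the 4 exons of the manual gene model and inside the predicted 3′ UTR of the Maker model. Positions are counted here from the cut in the orientation of the gene, with -1 just left of the cut (8787) and 1 just right of it (8786), so that the PAM, GGG on the strand of the sgRNA, lies on the left, at -6 to -4. The sgRNA is shown with the 3 bases between the cut and the PAM in capitals. The unedited site is shown over the 20 scored columns, -10 to 10, with -1 to 5 in capitals.
sgRNA: catatgactagctggccACA
unedited site: accgccctgTGGCCAgctag

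The 20 scored columns formed 15 classes of single-base deletion, 7 left and 8 right of the cut, because the loss of any base of a run gives the same sequence. The runs were the 2 C at -9 to -8, the 3 C of the PAM at -6 to -4, the 2 G at 1 to 2 and the 2 C at 3 to 4. The 4 alleles around which the results turn are given with the new junction in capitals, that is the bases next to the lost one and what was left of its run. The loss of a G at 1 to 2 accounted for 117059 reads of the positive controls without a substitution, against 4257 for the T at -1, 3468 for a C at 3 to 4 and 119 for the A at 5.
G lost at 1 to 2: accgccctgTGCcagctag
T lost at -1: accgccctGGgccagctag
C lost at 3 to 4: accgccctgtgGCAgctag
A lost at 5: accgccctgtggcCGctag

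A pair of libraries stood apart. The negative control of experiment 15 held 338 single-base deletion reads of 32096, or 1.05% (95% Wilson interval 0.947 to 1.17), while the other 15 negative controls held 2 to 13 reads each. The positive control of experiment 8 held an unusual mix of positions. It also listed the fewest allele entries of any kind, 247, against 382 to 868 in the other positive controls. What this reflects was not tested. Library depth was 17505 to 58396 reads in the positive and 17475 to 54340 in the negative controls, and 3 reads, the limit that a count of 0 allows, were then between 0.00514% and 0.0172% of a library. Intervals and limits of single libraries cover counting error only, since no molecular identifiers were described for these PCR products. The tables of experiments 4 to 7 listed no deletion longer than 16 nt and that of the positive control of experiment 8 none longer than 28 nt, against 76 to 92 nt in the other positive controls. These limits touch the shares of indel reads and of deletion reads. If reads with longer deletions were left out there, they touch the shares of all reads as well, which was not tested.

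The loss of a single base was frequent in every positive control and rare in the negative controls. It was found in 11.9% of reads at the lowest (experiment 5), 25.5% at the median and 35.5% at the highest (experiment 13), with a mean of 23.9% ± 7.42 (SD, n = 16). The negative controls held between 0.00632% and 1.05% with a median of 0.0249%, and 0.0274% ± 0.0185 on average without experiment 15. The groups did not overlap. The mean difference was 23.8 percentage points, it was positive in 16 of 16 experiments, and its p of 1e-05 was the smallest that the two-sided permutation test with 100000 resamples can give. Counting error was small beside this spread, since the widest Wilson interval of a positive control ran from 32.9% to 34.2% (experiment 4).

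**Figure D1:**
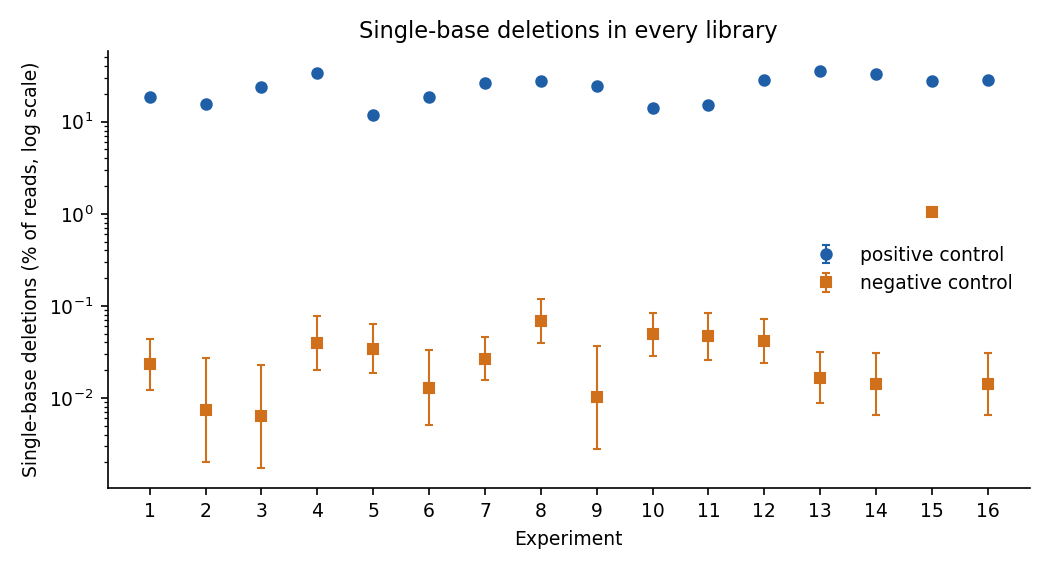
Share of reads with a single-base deletion (percent, log axis) in the positive and the negative control of each of the 16 experiments; bars are 95% Wilson intervals. All 16 positive controls lie between 11.9% and 35.5%, and the negative control of experiment 15 stands at 1.05%, above the other negative controls.

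Among reads with any indel, single-base deletions made up 48.6% at the lowest (experiment 2), 60.6% at the median and 64.6% at the highest (experiment 13). This share varied less between experiments than the share of all reads, with a coefficient of variation of 9.09% against 31.1%. Among reads with a deletion and no insertion, 70.8% ± 7.11 (SD, n = 16) lacked 1 base, 10.7% ± 2.30 lacked 2 and 3.51% ± 1.19 lacked 3. Of the sizes up to 16 nt, the next most frequent were 5 nt, at 3.31% ± 0.697, and 9 nt, at 1.86% ± 0.814. Negative controls other than that of experiment 15 held only 3 to 18 indel reads each, so their shares of indel reads, with a mean of 77.8% over all 16, rest on very few reads.

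Nearly all of these deletions removed a base at -1 to 5. These positions held 127327 of the 127397 reads in the positive controls, or 99.9%, and they form the only stretch of 6 bases in the scored columns that equals its own reverse complement, the longest of that kind there. Of the 15 classes, 6 were higher in the positive controls at an adjusted p under 0.05, against 87.7% of all 195 indel alleles tested. The adjustment was by the Benjamini-Hochberg method over all 195, and the classes, unlike the other alleles, were tested without a minimum of 10 reads. The 6 were the G at 1 to 2, the T at -1, a C at 3 to 4 and the A at 5, each with an adjusted permutation p of 3.68e-05, and the G at 6 (adjusted p = 0.00417) and the G at -2 (adjusted p = 0.00997). A seventh class, the A at 9, was lower (adjusted p = 0.0249). Only 4 of these 7 calls, those at -1 to 5, stayed past the threshold when alleles of 1 read, or alleles with a substitution, were left out, or in the reverse tables alone.

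**Figure D2:**
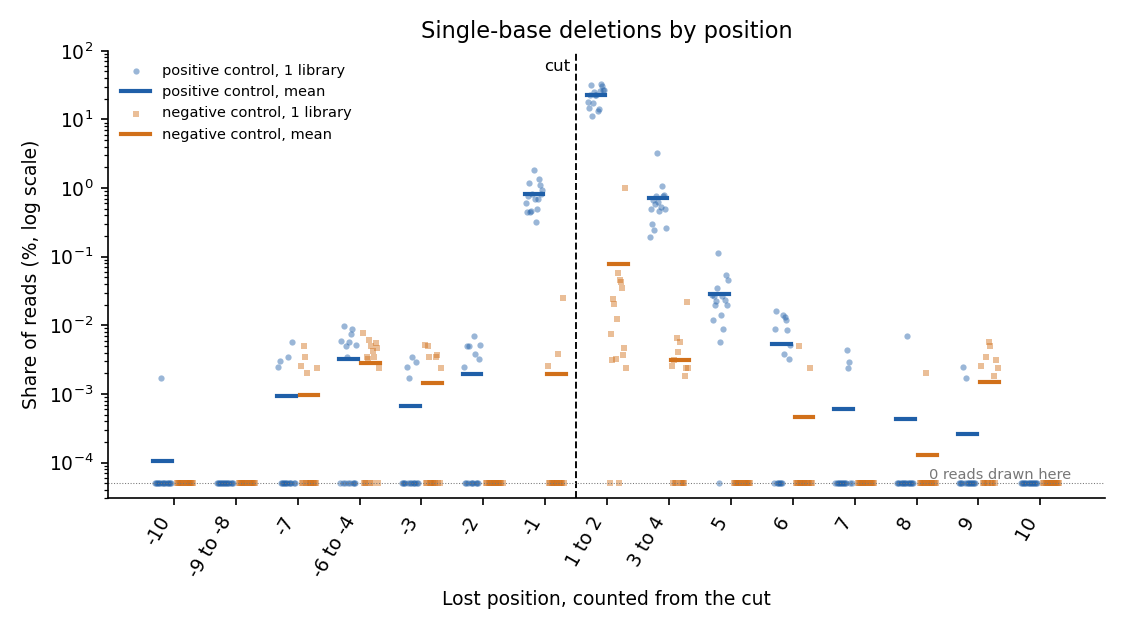
Share of reads (percent, log axis) that lost a base at each of the 15 positions or runs, counted from the cut (dashed line), in 16 positive and 16 negative controls; points are libraries, short lines are means, and libraries with 0 reads are drawn on the dotted line. From -1 to 5 the positive controls stand above the negative controls, except for experiment 8 with 0 reads at 5, with the highest shares at 1 to 2, between 11.2% and 33.3%.

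The G at 1 to 2, which borders the cut on the side away from the PAM, was the most frequent loss in every positive control. Its share of reads was 11.2% at the lowest (experiment 5), 23.0% at the median and 33.3% at the highest (experiment 13). Among single-base deletions it made up 93.5% ± 3.31 (SD, n = 16), and 92.9% to 95.5% in the 15 experiments other than experiment 8, which had 81.4%. The negative controls held between 0 and 12 such reads, and 322 in experiment 15. Their mean was 0.0791% of reads over all 16 and 0.0174% without experiment 15.

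The T at -1, the first base on the PAM side, was lost in 0.320% of reads at the lowest (experiment 10), 0.739% at the median and 1.83% at the highest (experiment 8). It was found in only 3 of the negative controls, with 1 read in experiment 1, 1 in experiment 10 and 8 in experiment 15. The groups did not overlap, since the 8 reads of experiment 15 were 0.0249% of that library. As a share of single-base deletions the loss of this T ran from 2.28% to 3.86% in the 15 experiments other than experiment 8, which had 6.65%.

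A C at 3 to 4 was lost in 0.195% of reads at the lowest (experiment 1), 0.554% at the median and 3.29% at the highest (experiment 8). The negative controls held 0 to 2 such reads, and 7 in experiment 15. The value of experiment 8, 772 of 23461 reads (95% Wilson interval 3.07% to 3.53%), lay far above the next highest, 1.05% in experiment 12. The mean over the positive controls was 0.721% ± 0.723 (SD, n = 16) with experiment 8 and 0.550% ± 0.239 (n = 15) without it. In experiment 8, 99 of these reads had another gap outside the scored columns, and without them its share was still 2.87% (2.66 to 3.09), above the highest of the other 15.

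The A at 5 was lost in 0.0285% ± 0.0270 of reads (SD, n = 16), with 0 reads in experiment 8 and the highest share, 0.115% (67 reads), in experiment 7. All 16 negative controls had 0 reads. Over the pooled reads the share was at least 59.5-fold higher in the positive controls, taking 3 reads over all negative controls as the limit that a count of 0 allows. A substitution accompanied 67 of the 186 pooled reads, which is 36.0% against 1.89% of the pooled reads that lost a G at 1 to 2. By library the share varied widely, from 0% to 70% with a mean of 34.4% ± 23.6 (SD, n = 15). For the G at 1 to 2 it was 2.00% ± 0.575 (SD, n = 16). The most frequent of these alleles had 49 of the 67 reads, in 10 libraries. A gained G at 1 to 2 with the loss of 4 to 5 would give the same letters. Its place in this class, and its substitution, therefore rest on the alignment. The allele is shown with its changed base in capitals.
A lost at 5 with a change at 3: accgccctgtggGcgctag

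**Figure D3:**
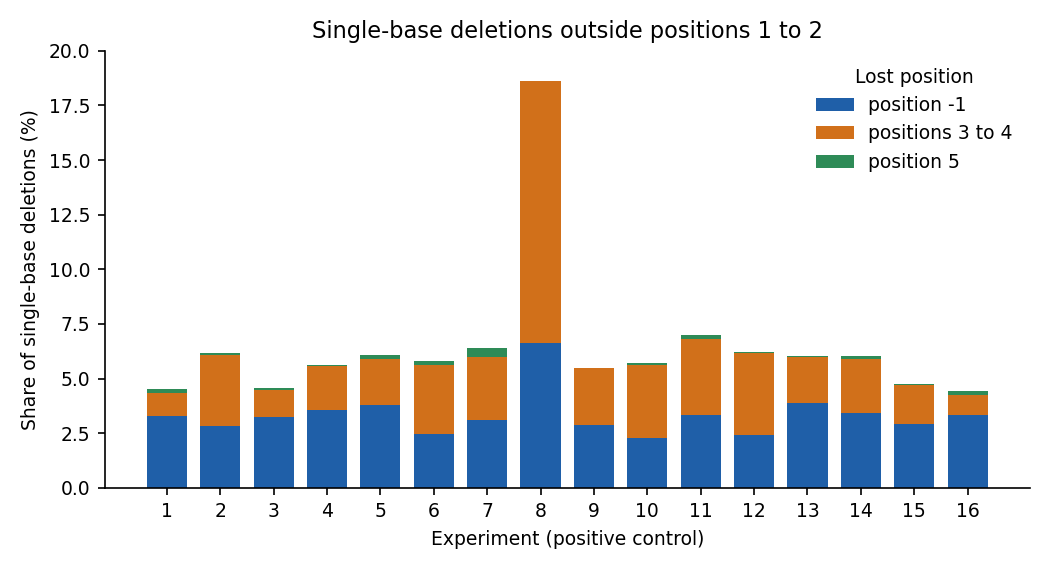
Losses at -1, at 3 to 4 and at 5 as a share of all single-base deletions (percent, stacked bars from 0) in the positive control of each of the 16 experiments; the remainder was almost entirely the loss at 1 to 2. Experiment 8 differs, with 12.0% at 3 to 4 and 6.65% at -1, while the highest share at 3 to 4 elsewhere is 3.75%.

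The order of the classes was clear at its top only. The G at 1 to 2 exceeded the T at -1 in 16 of 16 positive controls, and a C at 3 to 4 exceeded the A at 5 in 16 of 16. The T at -1 exceeded the C at 3 to 4 in 10 and was below it in 6, with a mean difference of 0.0946 percentage points against an SD of 0.514. Without experiment 8 the difference was 0.198 against an SD of 0.314, with the T higher in 10 of 15. With or without that experiment, the mean difference was smaller than the SD of the differences between libraries, and it was not tested. The A at 5 exceeded the G at 6 in 13 of 16, with 2 ties. From the G at 6 down, means were at most 0.00529% of reads, and each class down to the T at 8 changed places with the next one in some libraries. The classes below that held too few reads to be ordered.

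The stretch at -1 to 5 reads the same on both strands, so that the runs at 1 to 2 and 3 to 4 mirror each other, as do the T at -1 and the A at 5. The members of a mirrored pair differed in their shares. The loss of a G at 1 to 2 was 37.3 times as frequent as that of a C at 3 to 4 in the median library, with a range from 6.81 (experiment 8) to 103 (experiment 16). The T at -1, which borders the cut, stood at a mean of 0.816% of reads and the A at 5 at 0.0285%.

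The remaining 11 classes, -10 to -2 and 6 to 10, held 70 reads in the positive and 40 in the negative controls. Together they were 0.0134% ± 0.00881 of reads in the positive and 0.00736% ± 0.00550 in the negative controls (SD over 16 libraries per group). At -10 to -2 the groups had 35 and 30 reads, and at 6 to 10 they had 35 and 10. The excess in the positive controls lay mostly in the G at 6, with 28 and 2 reads, and the other 10 classes held 42 and 38. A C of the PAM run at -6 to -4 was lost in 15 reads of the positive and 17 of the negative controls. The loss of the T at -3, the base of the sgRNA next to the PAM, was seen in 4 and 8 reads, and that of the G at -7 in 5 and 5. The G at -2, between them and the cut, was lost in 10 reads of 7 positive controls and in 0 reads of the negative controls.

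On the right, the G at 6 was lost in 28 reads of 9 positive controls and in 2 reads of the negative controls. All 28 also carried a substitution, and 18 had another gap outside the scored columns. The call on this class was lost without alleles of another gap (adjusted p = 0.161), a setting chosen after the data were seen. The A at 9 was lost in 2 reads of the positive and 7 of the negative controls, at most 1 read in a library, and its adjusted p ran from 0.0214 to 0.0582 when each experiment was left out in turn, with the call lost without experiment 1, 8, 9, 15 or 16. Over the other classes on this side, the C at 7 was lost in 3 and 0 reads and the T at 8 in 2 and 1. The A at -10 was lost in 1 read of experiment 7, and the 2 C at -9 to -8 and the G at 10 in 0 reads of any library, which allows a share of up to 0.00056% of the pooled reads of the positive controls.

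The losses were not balanced around the cut. Bases right of the cut, away from the PAM, were lost in 23.1% ± 7.11 of reads and bases left of it in 0.823% ± 0.399 (SD, n = 16). The difference of 22.2 percentage points was positive in 16 of 16 positive controls (exact two-sided sign-flip p = 3.05e-05, the smallest that 16 experiments can give). The left side took 2.38% (experiment 10) to 6.65% (experiment 8) of single-base deletions. The size of the difference rested on the G at 1 to 2. With this class left out, the right side stood at 0.756% ± 0.716 and the left at 0.823% ± 0.399, and the difference was -0.0664 percentage points, with the right side higher in 7 of 16 experiments (exact sign-flip p = 0.642). Without experiment 8, chosen after the data were seen, the difference was -0.168 percentage points, with the right side higher in 6 of 15 (exact sign-flip p = 0.0568).

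By the base lost, G made up 93.5% ± 3.32 of single-base deletions in the positive controls, T 3.35% ± 0.991, C 3.02% ± 2.54 and A 0.127% ± 0.106 (SD, n = 16). Without experiment 8 these were 94.3% ± 0.778, 3.13% ± 0.472, 2.42% ± 0.915 and 0.135% ± 0.104 (n = 15). The bases are named on the strand of the gene, and on the strand of the sgRNA each is its complement. These shares follow the classes at -1 to 5, since each of the 4 bases had 1 class there. The shares of reads were higher in the positive than in the negative controls in 16 of 16 experiments for G, C and T and in 15 of 16 for A.

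The deleted G was also the base that was gained. A single G inserted at 1 to 2 was 99.0% ± 0.379 of all pure single-base insertion reads (SD, n = 16) and 6.44% ± 2.07 of all reads. A G was lost 3.57 ± 0.878 times as often as it was gained, with a lowest ratio of 2.00 in experiment 8 and a highest of 4.92 in experiment 12. Over all positions, single-base deletions outnumbered single-base insertions 3.77-fold ± 0.883, and in each of the 16 libraries by at least 2.15-fold (experiment 5).

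The 2-nt deletions were skewed in the same direction. Of these, 96.0% ± 1.11 lay wholly right of the cut and 0.0321% ± 0.0756 wholly left of it, while 3.95% ± 1.06 crossed the cut or could be placed on both sides of it (SD, n = 16). The 2 most frequent removed 2 to 3, at 2.26% ± 0.800 of reads, and 1 to 2, at 0.759% ± 0.330. The share right of the cut was 96.6% ± 0.982 among single-base deletions, 0.609 percentage points above that of the 2-nt deletions and higher in 11 of 16 experiments (exact sign-flip p = 0.107). Without experiment 8 the difference was 0.868 percentage points with p = 0.00256. A single-base deletion cannot cross the cut, and no run of 1 base spans it. Only the 2-nt share was therefore lowered by deletions that crossed the cut or could be placed on both sides. The difference in the share right of the cut is therefore not one between the 2 sides alone. Wholly left of the cut lay 3.37% ± 0.982 of the single-base deletions, against 0.0321% of the 2-nt deletions. The 0.0321% leaves out the loss listed at -3 to -2, with 0.120% ± 0.0462 of reads. That loss gives the same sequence as one across the cut, so it was counted as placeable on both sides. The 2 shares left of the cut are therefore not directly comparable. The comparison with 2-nt deletions was chosen after the data were seen.

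The share of indel reads that were single-base deletions was set against the share of reads with an indel, which ran from 21.6% (experiment 5) to 54.9% (experiment 13). Over the 16 positive controls Pearson's r was 0.511 (permutation p = 0.0450) and Spearman's rho 0.526 (permutation p = 0.0389). This was 1 of 4 relations with the indel share, each tested with both coefficients, and none passed the threshold after adjustment over the 8 tests (adjusted p = 0.161 for both). Without the 2 experiments farthest from the median indel share, 5 and 10, r was 0.430 (adjusted p = 0.324), and over the 12 forward experiments 0.557 (adjusted p = 0.225). Without experiment 8 it was 0.574 (adjusted p = 0.0973). The share of losses left of the cut gave r = 0.341 and the ratio to single-base insertions r = 0.387 (adjusted p = 0.268 and 0.222), and without experiment 8 these were 0.288 and 0.541 (adjusted p = 0.293 and 0.0973). The share of losses at 3 to 4 had no settled sign, with r = 0.110 and rho = -0.268 over all 16 (adjusted p = 0.764 and 0.360) and r = -0.344 and rho = -0.439 without experiment 8 (adjusted p = 0.237 and 0.164). Both measures hold the single-base deletions, so they are not independent of each other. The plan had named the share of the base left of the cut in place of the share of losses at 3 to 4.

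**Figure D4:**
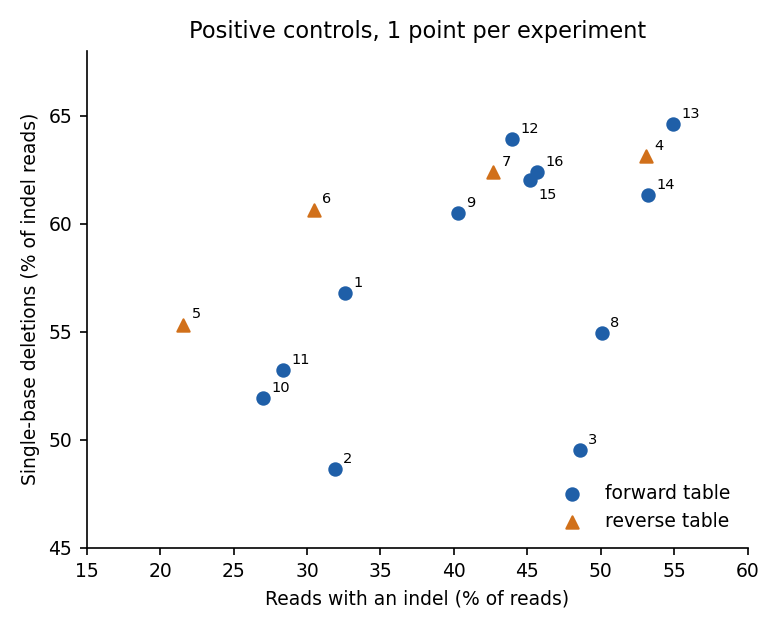
Single-base deletions as a share of indel reads against the share of reads with an indel (both percent; the axes do not start at 0) in the 16 positive controls, numbered by experiment, with the orientation of the deposited table marked. Experiments 2 and 3 are the lowest, at 48.6% and 49.5%, and the relation over all 16 did not pass the threshold after adjustment.

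The 4 experiments deposited in the reverse orientation had a share of 60.4% ± 3.52 of indel reads and the 12 forward ones 57.5% ± 5.70 (SD). The forward mean was lower by a difference of -2.90 percentage points, within the spread (exact two-sided permutation p = 0.358), and the difference was -1.51 when only indels of at most 16 nt were counted. The orientation changed where the gap was drawn. Over the positive and negative controls together, a lost C of the run at 3 to 4 was placed at 4 in all 2623 reads of the forward tables. It was placed at 3 in all 917 reads of the reverse tables, while a lost G of the run at 1 to 2 was placed at 1 in both.

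Both places lie outside the narrow window of 2 nt, which scores -1 and 1 only. In the tables of that window, all 119320 reads of the positive controls that lost a G at 1 to 2 and all 4298 that lost the T at -1 were modified. Of the 3523 reads that lost a C at 3 to 4, 3513 were unmodified there, as were all 186 that lost the A at 5. In all, 96.8% ± 2.51 of single-base deletion reads were modified in the narrow window (SD, n = 16), with the lowest value, 88.1%, in experiment 8.

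The negative control of experiment 15 had the same leading positions as the positive controls. Of its 338 single-base deletion reads, 95.3% (95% Wilson interval 92.4 to 97.1) lacked a G at 1 to 2, 2.37% (1.20 to 4.60) the T at -1 and 2.07% (1.01 to 4.21) a C at 3 to 4. In the positive control of the same experiment these shares were 95.2% (94.7 to 95.6), 2.94% (2.60 to 3.32) and 1.77% (1.51 to 2.07), each inside the interval of the negative control. It held 4.83 single-base deletions per single-base insertion against 4.74 in its positive control. Where these reads came from was not tested.

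Substitutions beside the deletion did not differ in share from those without one beyond the spread between libraries. A substitution in the scored columns accompanied 2.03% ± 0.569 of single-base deletion reads and 1.99% ± 0.398 of the reads without an indel in the same positive controls (SD, n = 16; exact sign-flip p = 0.847), while the reads without an indel of the negative controls had 1.10% ± 0.194. The 2 sets of the positive controls differed in where the changes lay. At 2 and at 6, reads that had lost a G carried a change in 0.0918% and 0.170% of cases, against 0.679% and 0.653% of the reads without an indel, and were lower in 15 and 16 of the 16 libraries. At 8 they carried more, 0.206% against 0.0431%, in 15 of 16. At 4 and 5 both sets were high, at 0.729% and 0.581% in reads that had lost a G, against 0.0476% and 0.0340% in the reads without an indel of the negative controls. These counts of libraries were not tested. Left of the cut the highest values, at -8 and -7, were alike in all 3 sets, between 0.138% and 0.147%.

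**Figure D5:**
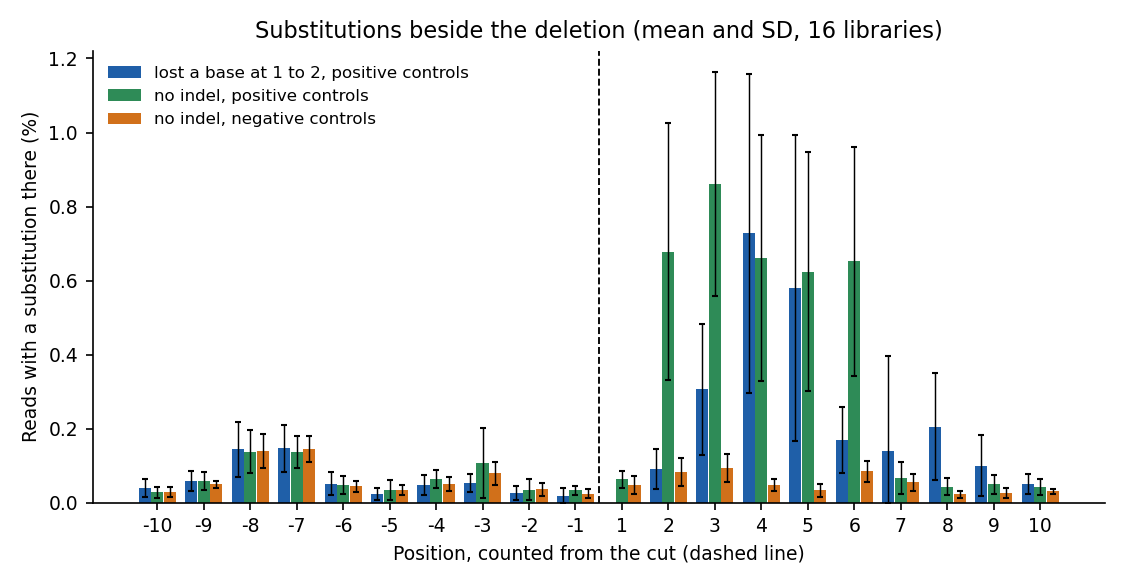
Share of reads with a substitution at each position (percent, bars from 0; error bars are the SD over 16 libraries, with the lower end stopped at 0) in reads of the positive controls that lost a base at 1 to 2 and in reads without an indel of the positive and negative controls. Right of the cut (dashed line) both sets of the positive controls rise above the negative controls at 4 and 5; position 1 has no value in the reads with the deletion, since the gap stands there.

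In the positive controls, 1719 of the 2461 substituted single-base deletion reads carried 1 change and 742 carried 2 or more. The most frequent substituted allele lacked a G at 1 to 2 and was changed at 4 and 5, with 291 reads in 15 of the 16 positive controls (all but experiment 8) and 1 read in the negative controls. Another, changed at 4, 5 and 8, had 136 reads in 15 positive controls and 3 in the negative controls. Both are shown because their changed stretch is found reversed at the same site. In the former, the 6 bases gctggc are the reverse complement of 2 to 7, and in the latter the 8 bases gctggcca are that of -1 to 7. Changed bases are in capitals.
changed at 4 and 5: accgccctgtgcTGgctag
changed at 4, 5 and 8: accgccctgtgcTGgcCag

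Of the 100 distinct alleles with 2 or more changes, 11 held such a reversed stretch of at least 6 bases over their changes, and these had 472 of the 742 reads. Of the 107 alleles with 1 change, 4 did, with 68 of the 1719 reads. A match of this kind is a description of the letters. The most frequent alleles with 1 change lacked a G at 1 to 2 and were changed at -8 (150 reads) or -7 (140 reads), the positions that were also the highest left of the cut in reads without an indel. Experiment 8, whose positive control listed the fewest allele entries of any kind, had 0 reads of the allele changed at 4 and 5. It had the highest share, 0.239%, of an allele with 1 change, at 7.
changed at 7: accgccctgtgccagAtag

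The members varied in number as well as in reads. Over the positive controls 1535 entries gave 492 distinct alleles, of which 11 were found in all 16 libraries and 302 in a single one. Entries of 1 read were 54.5% of the entries but 0.656% of the reads. Of the entries, 1261 lacked a G at 1 to 2. A gap or insertion outside the scored columns was present in 174 reads of the positive controls, 102 of them in experiment 8.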

How the data were processed

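The Mr-cofilin site was amplified by PCR from DNA of 16 positive and 16 negative controls and sequenced on a MiSeq. The authors ran CRISPResso2 with windows of 2 and 20 nt and deposited, per library and window, a table of alleles over 40 aligned columns with raw read counts, percent of aligned reads as the authors calculated it, and the number of deleted, inserted and substituted bases (other values, deposited per allele). The version and filters were not given in the sources used here, and read filters could change rare alleles.

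The counts of the 20-nt window were used. Reverse tables were turned by reverse complement, and the position of each gap was read from the alignment and joined over runs of 1 base. Libraries were the replicates. Group differences were tested by permutation of library labels (100000 resamples, seed 1; exact with fewer than 10 libraries in a group), pairs by exact sign-flip tests, and alleles with at least 10 reads over all libraries together with the 15 classes were adjusted by the Benjamini-Hochberg method, threshold 0.05. Wilson intervals (95%) and the limit of 3 reads cover counting error; depth was 17475 to 58396 reads. Python 3.11.15 with NumPy 2.4.6 and SciPy 1.17.1 served for all calculations, and Matplotlib 3.10.9 for the plots. The classing of single gaps, the group permutation test with its adjustment and the sign-flip test were tried on simulated data. The other calculations were not.

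All 15 classes are accounted for. Values by library were given for classes with a mean of at least 0.1% of reads in the positive controls and for the A at 5, which was added after its values were seen. Members and lists were chosen with earlier results of these data known. Both controls of an experiment came from 1 female, which pairs them; their shares of single-base deletions were not clearly correlated (n = 16, Pearson r = 0.140, permutation p = 0.722; Spearman rho = 0.0118, p = 0.970; without experiment 15, r = -0.0973). Sequences are from the study's supplementary sgRNA table and region file and from the deposited alleles.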

Additional observations from a re-analysis of the deposited data

Results flagged for a closer look

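In the group of 4 positive controls with reverse tables, the loss of the A at 5 in experiment 7, 0.115% of reads, lay far from the other 3, the nearest of which had 0.0352%. It was 1 of 10 small groups tested in this way, and chance alone sets about 1 in 20 such groups apart.

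Single gaps in the 10 aligned columns right of the scored window, which no comparison used, were found in 0.00838% ± 0.00909 of reads of the positive and 0.00284% ± 0.00400 of the negative controls (SD, n = 16 each), and were higher in 9 of 16 experiments (two-sided permutation p = 0.0273; adjusted p = 0.0545 over both sides). The 10 columns left of the window gave 0.0108% and 0.0128% (p = 0.373).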

How the results depend on the processing

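The difference in single-base deletions between the controls kept its direction and its side of the threshold on the arcsine scale, in either orientation, without substituted or 1-read alleles and with another gap left out, and was 23.0 to 24.6 percentage points when each experiment was left out. With medians, not tested, it was 25.5 percentage points. With the experiment as a replicate block the difference was 23.8 percentage points (exact sign-flip p = 3.05e-05), and 7 classes passed the threshold as without the block, so the block changed no call on a class. As a share of indel reads the difference turned to -19.6 percentage points (permutation p = 0.00066), over negative controls with very few indel reads. The number of classes past the threshold was 4 without 1-read alleles, 4 without substituted alleles and 4 in the reverse tables, 6 with alleles of another gap left out, where the call on the G at 6 was lost, and 6 to 7 with each experiment left out. Over all indel alleles, 171 of the 195 tested were higher (87.7%), against 107 of 166 without 1-read alleles (64.5%), 115 of 149 without substituted alleles (77.2%) and 52 of 82 in the reverse tables (63.4%). With the block 157 of 195 were higher (80.5%), and with alleles of another gap left out 156 of 195 (80%). With each experiment left out the share ran from 74.9% to 89%. The G at 6 turned to -0.000454 percentage points without substituted alleles and to -0.00123 in the reverse tables, and the A at 9 to 0.000192 in the reverse tables. Right minus left was 21.2 percentage points in the 4 reverse tables (exact p = 0.125, the smallest possible there), -0.0664 without the class of the 2 G (-0.168 to -0.0277 with each experiment left out as well), and 21.5 to 23.0 with each experiment left out. The difference in substitutions turned to -0.166 percentage points without 1-read alleles (p = 0.251) and ran from -0.0529 to 0.1003 with each experiment left out. The share right of the cut of single-base against 2-nt deletions differed by 0.868 percentage points without experiment 8. Only 2-nt deletions can cross the cut or be placed on both sides of it. Limits on indel length, leaving out alleles with another gap and leaving out experiment 8 were chosen after seeing the data. A class with under 3 reads in a library is below the limit that a count of 0 allows there.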
